A study of Mus musculus with 6 samples.

Results

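The voltage-gated calcium channel subunits were examined in ventricles of mice at postnatal day 10 (P10), with and without overexpression of *Runx1* in cardiomyocytes. The members were taken by name, namely the pore-forming genes *Cacna1c*, *Cacna1d*, *Cacna1g* and *Cacna1h*, the α2δ genes *Cacna2d1*, *Cacna2d2* and *Cacna2d3*, and the β genes *Cacnb1*, *Cacnb2* and *Cacnb3*. Of these 10 genes, 9 were among the 19079 genes of the expression table, and *Cacna2d3* was not analysed here. All 9 had a mean of at least 10 normalized counts over the mice, as did 15181 genes in all.

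The *Runx1* OE group held 4 mice that carried Myh6-CreER, a tamoxifen-dependent Cre recombinase driven by the cardiomyocyte promoter of *Myh6*, together with a Rosa-Runx1 allele from which Cre switches on *Runx1*. The control group held 2 Myh6-CreER littermates without the Rosa-Runx1 allele. Both groups were C57BL/6, both received tamoxifen at P0 and P1, and both therefore carried active Cre. With this tamoxifen regimen the study reports RUNX1 induction in only part of the cardiomyocytes on average, given with its injury experiment. That share was not measured in the mice used here, whose *Runx1* OE ventricles may have mixed recombined and unrecombined cells. The series' design text names whole ventricles and its extraction protocol left ventricles. RNA was read by bulk poly(A) RNA sequencing, in which fewer cells of a type and less RNA per cell cannot be told apart.

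Voltage-gated calcium channels open when the membrane depolarizes and let calcium into the cell. In ventricular cardiomyocytes the L-type channel carries the calcium current of the action potential plateau, which triggers calcium release from the sarcoplasmic reticulum and thereby contraction. Its pore is the α1 subunit, to which a cytoplasmic β subunit and an extracellular α2δ subunit bind. Both auxiliary subunits raise the number of channels at the surface and tune their gating. T-type channels open at more negative potentials, need no auxiliary subunit to conduct, and are known from the fetal and newborn ventricle and from pacemaker tissue.

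The values below are the authors' group means in normalized counts. No column of single mice could be assigned to a group from its name, so no SD, no standard error and no p-value is given, and every comparison is a description of these 6 mice. The table also gives the total, the highest value and the geometric mean over the 6 mice. Together with both group means, these limit what any single mouse could have been, and the limits are given as the lowest and highest value possible in each group. For some genes the limits of the groups left no overlap, whichever mouse held which value. Such a gene is called separated below, on the allowance that each fitted mean lay within 1% of the plain mean of its mice, in place of a statement on replicate error.

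The *Runx1* means fitted the labels, at 16622 normalized counts in *Runx1* OE ventricles and 40.2 in controls, with every *Runx1* OE mouse at 5221 or more and both controls at 64.5 or less. The group means summed over genes to 19199157 and 19870568 normalized counts, and the median log2 ratio of all 15181 genes was 0.01. The ventricular cardiomyocyte markers were abundant, with all 8 listed genes present and summed means of 498534 in *Runx1* OE and 592800 in controls. *Xist*, the RNA of the inactive X chromosome in females, had a mean of 4584 in *Runx1* OE mice, of which single mice could range from 1.89 to 7493, and of 8.92 in controls, both at or below 18.0. Sex and genotype therefore cannot be told apart in what follows. Lists of markers of non-myocyte cells had median log2 ratios of -0.06 for 5 fibroblast genes, -0.13 for 5 endothelial genes, -0.06 for 5 macrophage genes, -0.08 for 6 smooth muscle and pericyte genes and -0.07 for 4 of 7 neuron and Schwann cell genes. Their members went both ways. *Csf1r* (-0.32), *Mrc1* (-0.38) and *Acta2* (-0.46) were lower and without overlap between the groups, by narrow gaps. For these genes the lowest control possible was 476, 298 and 5199, and the highest *Runx1* OE mouse possible 459, 288 and 5136. *Lyz2* (0.47) and *Tagln* (0.57) were higher with overlap possible. The atrial markers had a median of 1.73.

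Of the 9 subunits, 1 was at least 1.5-fold higher in *Runx1* OE and 2 were at least 1.5-fold lower, with 6 within that fold. Over all 15181 genes, 5.49% were at least 1.5-fold higher and 3.96% at least 1.5-fold lower, 9.45% in all. At 2-fold, 1 subunit was higher and 0 were lower, against 1.78% and 1.17% of all genes, or 2.95% either way. At a looser ratio of 5 to 4, 2 subunits were higher and 4 lower, against 13.9% and 10.6% of all genes, or 24.5% either way. The log2 ratio was above 0 for 2 subunits and below 0 for 7, of which *Cacna1h*, *Cacna2d2* and *Cacnb3* turned above 0 when centred on the ventricular cardiomyocyte markers, and its median was -0.24. Over all genes, 7872 ratios were above 0 and 7309 below. Separated groups were found for 1 subunit that was higher in *Runx1* OE, *Cacna1d*, and for 3 that were lower, *Cacna2d1*, *Cacnb1* and *Cacnb2*. Over all genes, 6.21% were separated with *Runx1* OE higher and 5.77% with *Runx1* OE lower.

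**Figure D1:**
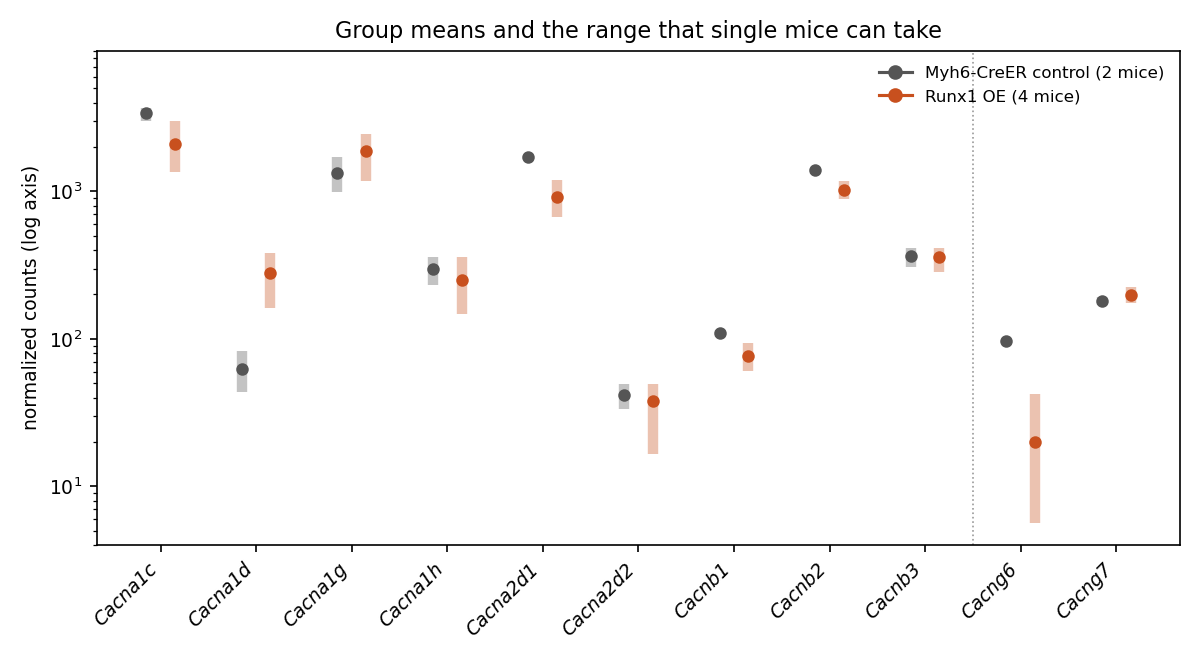
Group means of the 9 subunits and, right of the dotted line, of *Cacng6* and *Cacng7*, in normalized counts on a log axis. Points are the authors' means of 2 controls and 4 *Runx1* OE mice, and shaded bars span the lowest and highest value that a single mouse of the group could have had. The bars of *Cacna1d*, *Cacna2d1*, *Cacnb1*, *Cacnb2* and *Cacng6* leave no overlap, and those of *Cacna1c* overlap between 3023 and 3027.

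Both L-type pore genes differed between the groups, in opposite directions. *Cacna1c* (ENSMUSG00000051331, chromosome 6, 118564201 to 119173851 of GRCm39, minus strand) encodes the main L-type pore of the working ventricle. It averaged 2106 normalized counts over *Runx1* OE mice and 3389 over controls. Each control lay between 3023 and 3687 and each *Runx1* OE mouse between 1363 and 3027, and the highest mouse, at 3687, was a control. The *Runx1* OE mean was thus 62.1% of the control mean, a log2 ratio of -0.69, and 2.87% of all genes had a lower ratio. The limits of the groups overlapped between 3023 and 3027 normalized counts, and so the groups could not be called separated. The log2 ratio could be as near 0 as -0.51 without the lowest *Runx1* OE mouse and -0.52 against the lower control alone, both within 1.5-fold.

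*Cacna1d* (ENSMUSG00000015968, chromosome 14, 29761896 to 30213412, minus strand) encodes the L-type pore that opens at lower voltages and is known from the sinoatrial node and the atria. It averaged 281 normalized counts over *Runx1* OE mice and 62.7 over controls. Each control lay between 43.7 and 82.9 and each *Runx1* OE mouse between 163 and 382. Every *Runx1* OE mouse was therefore at least 1.97-fold above either control, and with the highest *Runx1* OE mouse left out the other 3 still averaged at least 243. The ratio of the means was 4.48-fold, or 2.16 on the log2 scale, and 62 genes, 0.408% of all, had a higher one. The exons of *Cacna1d* share 1624 bases with *Chdh* and Gm50467 on the opposite strand, and *Chdh* averaged 2.41 normalized counts over the mice. Whether reads were counted by strand is not stated, and without strand the reads of such partners cannot be told apart.

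Both genes have several transcription starts, and the sequences before 2 of them are shown because RUNX1, a DNA-binding factor, is the overexpressed protein. The letters bound by RUNX proteins, TGTGGT or TGCGGT, were searched on both strands of the 250 bases before each RefSeq start, taken from its GRCm38.p6 windows and placed by exact match in GRCm39. They were present in 3 of 14 windows, which belonged to 8 of the 10 listed genes, with *Cacna2d3* and without *Cacna1g* and *Cacna1h*, against 18.59% of 32851 windows of all genes. The first sequence is the part outside exons of the *Cacna1d* window at chr14:30075493-30075693 on the minus strand, with no match in 201 bases, and the next is the *Cacna1c* window at chr6:118734936-118735185 on the minus strand, within an intron, with the match in capitals.
*Cacna1d*, 5′ to 3′: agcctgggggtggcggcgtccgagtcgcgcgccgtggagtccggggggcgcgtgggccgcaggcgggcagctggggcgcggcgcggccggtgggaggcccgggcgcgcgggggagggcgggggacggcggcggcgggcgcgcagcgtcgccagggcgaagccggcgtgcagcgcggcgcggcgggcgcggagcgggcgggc
*Cacna1c*, 5′ to 3′: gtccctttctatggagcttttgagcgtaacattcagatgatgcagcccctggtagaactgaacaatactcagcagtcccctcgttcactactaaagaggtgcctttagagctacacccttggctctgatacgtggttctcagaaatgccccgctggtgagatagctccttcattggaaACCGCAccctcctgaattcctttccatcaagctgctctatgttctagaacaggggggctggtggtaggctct
The match in *Cacna1c* begins 72 bases before that start and is the reverse complement of TGCGGT. The others are shown in 30 bases each, one before the upstream *Cacna1c* start, inside an exon at chr6:119173425-119173454, and one 191 bases before an internal *Cacnb1* start, in an intron at chr11:97909372-97909401, both on the minus strand.
*Cacna1c*, upstream start: cgcataggtctgACCACAgcagcaaagtca
*Cacnb1*, internal start: atagcatgcttcTGTGGTtgaggcagagag
A match to 6 letters is a description of the sequence and no measurement of binding.

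The opposite directions of *Cacna1c* and *Cacna1d* left their levels closer together. Per kilobase of exon, which allows levels of different genes to be compared as far as the annotated exons are those in use, *Cacna1c* had 94.2 normalized counts in *Runx1* OE and 152 in controls, and *Cacna1d* had 18.5 and 4.13. *Cacna1d* therefore stood at 19.6% of the *Cacna1c* level in *Runx1* OE and at 2.72% in controls, a 7.21-fold difference. A scaling factor shared by all mice of a group would leave this difference unchanged. Factors of single libraries set the weight of each mouse in its group mean and could change it. As a share of the L-type pore level per kilobase, *Cacna1d* made up 16.4% in *Runx1* OE and 2.65% in controls. *Cacna1c* remained the more abundant of the pair in both groups.

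The T-type pore genes did not differ by 1.5-fold. *Cacna1g* (ENSMUSG00000020866, chromosome 11, 94299217 to 94365024, minus strand), the more abundant T-type pore here, averaged 1871 normalized counts over *Runx1* OE mice and 1334 over controls. Controls lay between 993 and 1702 and *Runx1* OE mice between 1183 and 2458, so that the groups could overlap, although the highest mouse was a *Runx1* OE mouse. The *Runx1* OE mean was 140% of the control mean, a log2 ratio of 0.49, which could reach 0.67 without the lowest *Runx1* OE mouse and 0.91 against the lower control alone, both past 1.5-fold. *Cacna1h* (ENSMUSG00000024112, chromosome 17, 25593259 to 25652757, minus strand), the other T-type pore, had a mean of 253 in *Runx1* OE, with mice between 147 and 357, and of 298 in controls, with mice between 233 and 357, and its log2 ratio was -0.24. Its groups could overlap over most of their range.

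Set against the L-type pores, the T-type pores took a larger part in *Runx1* OE. Per kilobase, *Cacna1g* was at 1.92 times the level of *Cacna1c* in *Runx1* OE and at 0.851 times in controls. The order of these genes differed between the group means only after division by exon length. In normalized counts *Cacna1c* was higher in both groups, at 2106 against 1871 in *Runx1* OE and 3389 against 1334 in controls. For neither gene were the groups separated. Summed per kilobase, the T-type pores had 204 normalized counts in *Runx1* OE and 156 in controls, and the L-type pores 113 and 156. The T-type to L-type ratio was 1.81 in *Runx1* OE and 1.00 in controls. *Cacna1h* was at 0.127 times the level of *Cacna1g* in *Runx1* OE and at 0.211 times in controls.

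**Figure D2:**
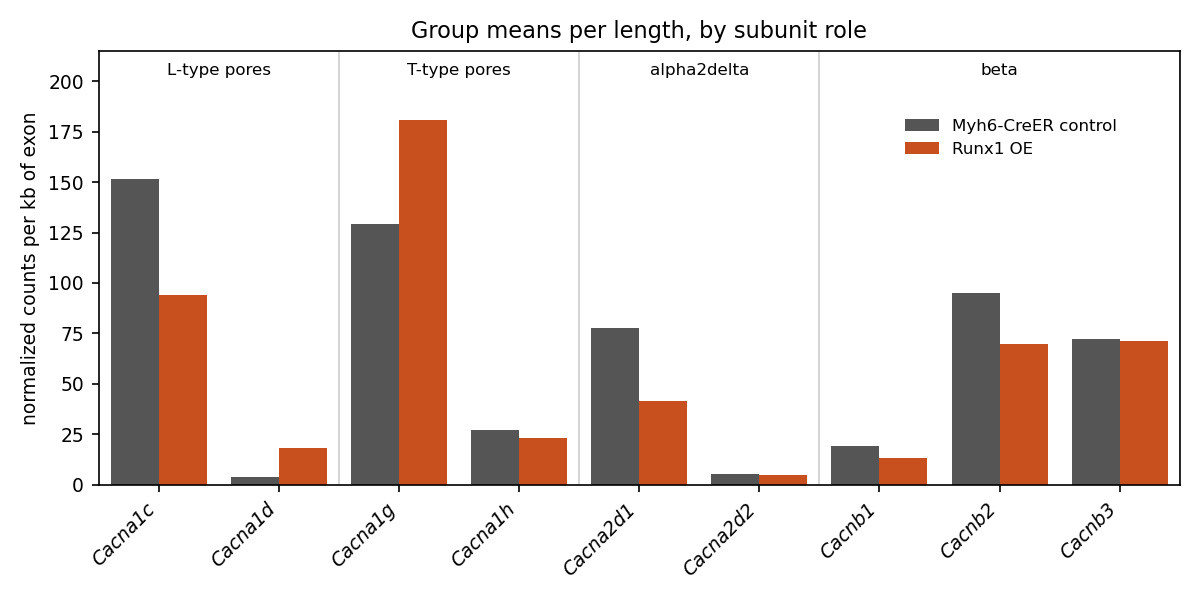
Group means of the 9 subunits divided by the length of their exons, in normalized counts per kilobase, grouped by role. Grey bars are Myh6-CreER controls and orange bars *Runx1* OE, with no error bars because single mice could not be assigned. *Cacna1c* is the highest pore gene in controls, at 152, and *Cacna1g* the highest in *Runx1* OE, at 181.

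The α2δ members were led by *Cacna2d1*, which was lower in *Runx1* OE. *Cacna2d1* (ENSMUSG00000040118, chromosome 5, 16139689 to 16579509, plus strand) encodes the main α2δ subunit of the ventricular L-type channel. It averaged 915 normalized counts over *Runx1* OE mice and 1722 over controls. Each control lay between 1645 and 1765 and each *Runx1* OE mouse between 676 and 1204, so that either control was at least 1.37-fold above every *Runx1* OE mouse. The *Runx1* OE mean was 53.1% of the control mean, a log2 ratio of -0.91, and 227 genes of all had a lower one. *Cacna2d2* (ENSMUSG00000010066, chromosome 9, 107276811 to 107406542, plus strand), another α2δ subunit, was low at 37.6 in *Runx1* OE and 41.8 in controls. Its log2 ratio was -0.15, with controls between 33.5 and 49.3 and *Runx1* OE mice between 16.5 and 49.3, and the groups could overlap. Per kilobase the sum of both genes was 46.1 in *Runx1* OE and 83.2 in controls, a log2 ratio of -0.85, and it stood at 0.409 times the L-type pores in *Runx1* OE and 0.534 times in controls.

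Of the β members, which bind the pore inside the cell, *Cacnb1* and *Cacnb2* were lower in *Runx1* OE, by less than *Cacna2d1*, and the means of *Cacnb3* were close. *Cacnb2* (ENSMUSG00000057914, chromosome 2, 14607899 to 14992719, plus strand), the main cardiac β subunit, averaged 1018 normalized counts over *Runx1* OE mice and 1392 over controls. *Runx1* OE mice lay between 884 and 1174 and controls between 1312 and 1444, which did not overlap, and the log2 ratio was -0.45. Its exons share 1251 bases with 3 genes on the opposite strand. *Cacnb1* (ENSMUSG00000020882, chromosome 11, 97892334 to 97913860, minus strand), the β subunit of skeletal muscle, had a mean of 76.0 in *Runx1* OE, with mice between 61.0 and 93.6, and of 109.87 in controls, with mice between 103 and 114. Its groups did not overlap either, and its log2 ratio was -0.53. Separation was narrow for both genes, at least 1.12-fold between any control and any *Runx1* OE mouse for *Cacnb2* and at least 1.11-fold for *Cacnb1*.

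*Cacnb3* (ENSMUSG00000003352, chromosome 15, 98528721 to 98542410, plus strand), a β subunit found in many tissues, had a mean of 358 in *Runx1* OE, with mice between 285 and 413, and of 364 in controls, with mice between 307 and 413. Its log2 ratio of -0.02 lay close to the median of all genes. Per kilobase *Cacnb3* was at 1.02 times the level of *Cacnb2* in *Runx1* OE and at 0.758 times in controls. The β members summed per kilobase to 154 in *Runx1* OE and 186 in controls, a log2 ratio of -0.28. They stood at 136% of the L-type pores in *Runx1* OE and at 119.6% in controls.

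**Figure D3:**
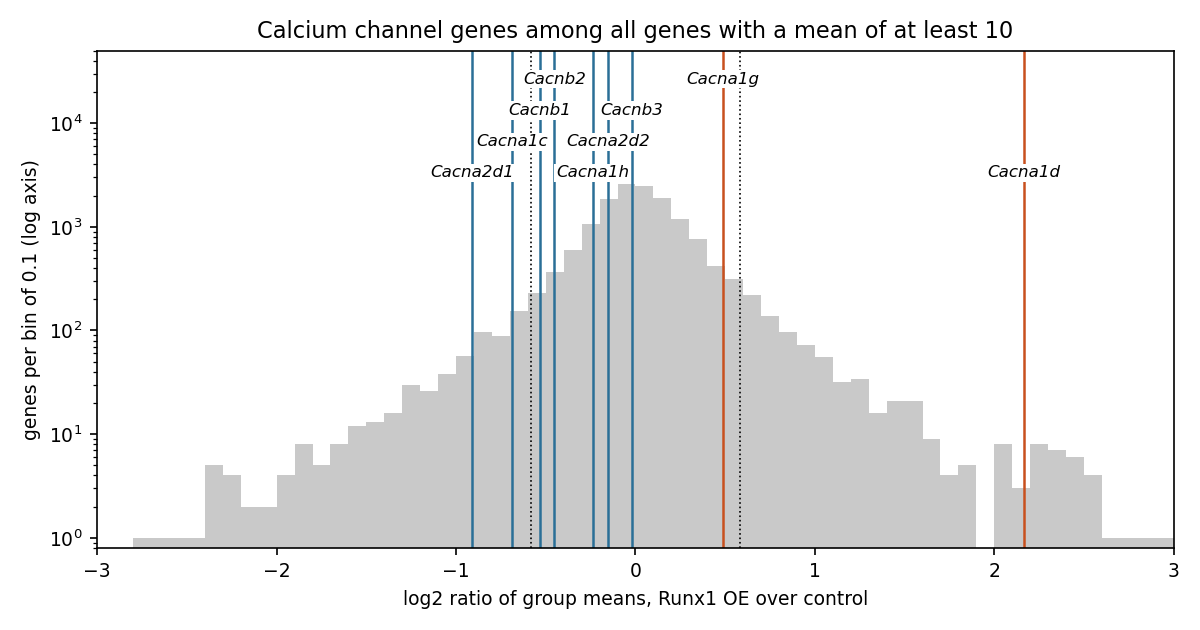
Distribution of the log2 ratio of group means, *Runx1* OE over control, for the 15181 genes that averaged 10 or more normalized counts, with gene numbers on a log axis and 34 genes outside the plotted range. Vertical lines mark the 9 subunits, orange above 0 and blue below, and dotted lines mark 1.5-fold. *Cacna1d*, at 2.16, lies far into the upper tail, and *Cacna2d1*, at -0.91, and *Cacna1c*, at -0.69, lie beyond the lower dotted line.

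The rest of the gene family was sparse in these ventricles. Of 16 further voltage-gated calcium channel genes, 7 were in the table and 6 had a mean of at least 10, and the others were not analysed here or, for *Cacna1e*, averaged 2.23. *Cacng6*, a γ subunit known from skeletal muscle, differed most. It averaged 20.0 normalized counts over *Runx1* OE mice and 96.5 over controls, with both controls between 95.5 and 96.6 and *Runx1* OE mice between 5.61 and 42.5. Either control was at least 2.25-fold above every *Runx1* OE mouse, the log2 ratio was -2.27, and 11 genes of all had a lower one. Its exons share 870 bases with 3300002P13Rik on the opposite strand.

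*Cacng7*, a γ subunit known from brain, had means of 199 in *Runx1* OE and 180 in controls, and *Cacng4*, another γ subunit, of 12.3 and 6.16. Their log2 ratios were 0.14 and 1.00, and the groups of both could overlap. The other genes were the skeletal L-type pore *Cacna1s* (log2 ratio 0.52), the neuronal pore *Cacna1a* (-0.23) and the β gene *Cacnb4* (-0.22), and their groups could overlap as well. Of the 6 genes, 1 was at least 1.5-fold higher and 1 at least 1.5-fold lower. Skeletal muscle markers were low, with *Tnnt3*, *Actn3* and *Mylpf* each at or below 4.62 in either group, while *Ckm*, which the heart also expresses, had a log2 ratio of -0.38.

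Genes whose products act on the L-type channel mostly had log2 ratios near 0. Of 24 listed regulators, 23 were in the table, of which 0 were at least 1.5-fold higher and 1 was at least 1.5-fold lower, with a median log2 ratio of -0.05. The exception was *Gem*, a small GTPase that inhibits calcium channels through the β subunit, at 86.8 in *Runx1* OE and 140 in controls (log2 ratio -0.69), with overlap possible. Its relative *Rrad*, which lowers the cardiac L-type current in the same way, had a mean of 1965 in *Runx1* OE and 2793 in controls. *Runx1* OE mice lay between 1505 and 2510 and controls between 2720 and 2810, so the groups were separated, with a log2 ratio of -0.51. *Calm2*, one of the calmodulin genes, had means of 2051 and 1611 (log2 ratio 0.35), and *Akap5*, which anchors protein kinase A near the channel, of 57.2 and 70.9 (-0.31).

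Partner genes listed for the dyad, where L-type channels face the release channels of the sarcoplasmic reticulum, included more that were lower. The list also held the calcium pump of the sarcoplasmic reticulum and its inhibitor. Of 12 genes, 3 were at least 1.5-fold lower and 0 at least 1.5-fold higher, against 3.96% and 5.49% of all genes. The 3 were *Pln*, *Ryr2* and *Atp2a2*. The other 9 were within 1.5-fold, among them *Trdn* (-0.24), *Asph* (-0.19), *Jph2* (-0.02) and *Fkbp1b* (0.29). The median log2 ratio was -0.21. *Pln*, the inhibitor of the sarcoplasmic reticulum calcium pump, had a mean of 58845 in *Runx1* OE and 103894 in controls, with *Runx1* OE mice between 47173 and 72787 and controls between 98225 and 107485. Its groups were separated, with a log2 ratio of -0.82. *Ryr2*, the release channel, had means of 5926 and 9945 (log2 ratio -0.75), and *Atp2a2*, the pump itself, of 72930 and 116370 (-0.67), each with overlap possible. *Tcap*, a protein of the Z-disc and its adjoining tubules, had means of 3270 and 4494 (-0.46) and was separated. *Casq2* (-0.26) was separated too, with controls at 16687 or more and *Runx1* OE mice at 15580 or less. Of the 12 ratios 9 were below 0 and 3 above, the highest 0.38 for *Slc8a1*, with overlap possible.

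Ventricular cardiomyocyte markers were, in the median, lower in *Runx1* OE as well. Of 8 markers, 0 were past 1.5-fold in either direction, 6 had a ratio below 0, and the median was -0.24, the same as for the subunits, with a range from -0.58 for *Myh6* to 0.10 for *Myl2*. Only *Tnnt2* was separated, with *Runx1* OE lower. The gap was narrow, with *Runx1* OE mice at 49318 or less and controls at 50135 or more. Relative to the median of these markers, *Cacna2d1* and *Cacna1c* had log2 ratios of -0.67 and -0.45, and *Cacna1c* was then within 1.5-fold. The part of the cardiomyocyte markers in the subunits' ratios was not tested.

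Most genes listed as atrial markers had higher means in *Runx1* OE. Of 6 genes, 5 were at least 1.5-fold higher in *Runx1* OE, against 5.49% of all genes, and 1 was separated. In bulk RNA, atrial cells and ventricular cells with these transcripts cannot be told apart. The means of the 6 genes summed to 1926 normalized counts in *Runx1* OE and 594 in controls. Most of this sum was *Nppa*, atrial natriuretic peptide, with 1420 in *Runx1* OE and 288 in controls, which was separated. The atrial myosin light chains *Myl4* and *Myl7* had means of 253 and 73.3 in *Runx1* OE and of 88.9 and 21.7 in controls, but single *Runx1* OE mice could be as low as 59.99 and 2.30, so overlap was possible. *Bmp10* had means of 13.2 in *Runx1* OE and 4.08 in controls, with overlap possible. *Sln* had means of 22.2 and 2.53, without limits for single mice. *Stard10* had a log2 ratio of -0.38. None of the 6 genes was at 0 in a group mean.

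Of 8 sinus node and conduction genes, 7 were in the table, 1 of them at least 1.5-fold higher, with a median log2 ratio of 0.20 and summed means of 1537 in *Runx1* OE and 1293 in controls. *Hcn4*, the main pacemaker channel, had 391 in *Runx1* OE and 189 in controls and was separated, as was *Tbx18* with a log2 ratio of 0.57. The nodal factor *Shox2* had 15.0 and 15.3, and *Tbx3* and *Cntn2* had log2 ratios of -0.35 and -0.39. The study's methods state that atria and the outflow tract were cut away before RNA was extracted. The part of atrial or conduction tissue in the *Cacna1d* difference was not tested.

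**Figure D4:**
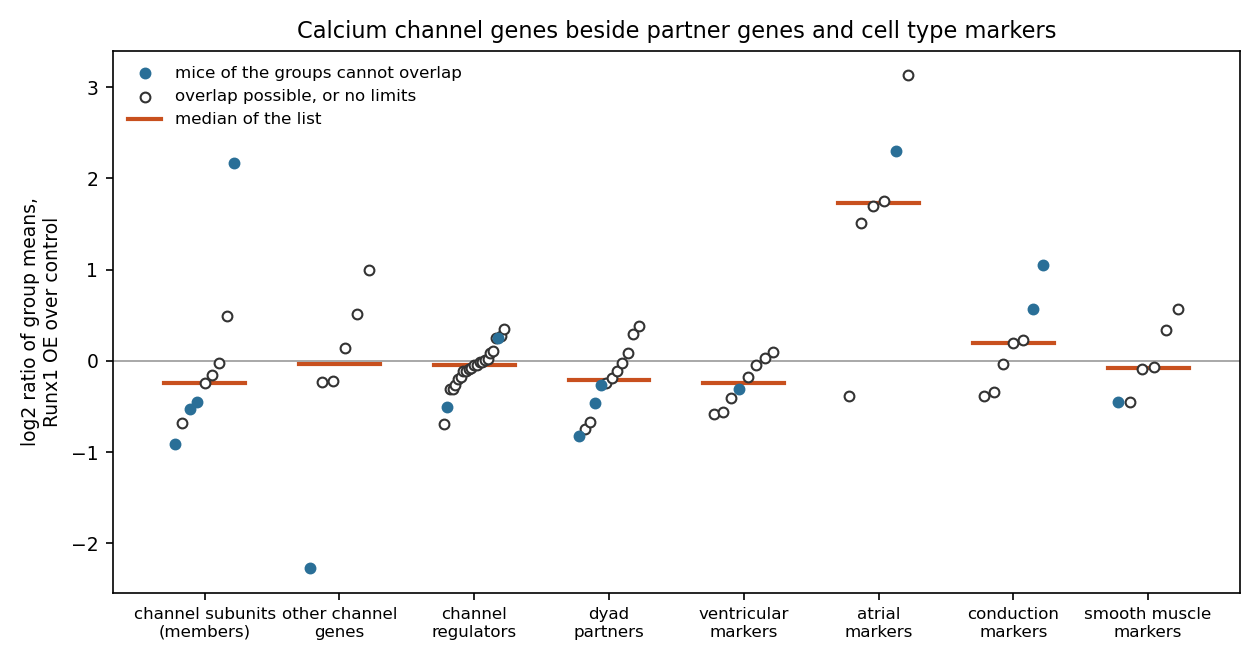
Log2 ratio of group means, *Runx1* OE over control, for each gene with a mean of at least 10 in 8 lists, 1 point a gene. Filled points are separated genes, open points those whose groups could overlap or had no limits, and orange bars list medians. The subunits and the ventricular markers share a median of -0.24, the atrial markers have one of 1.73, and *Cacna1d* and *Cacng6* lie far from the other calcium channel genes.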

How the data were processed

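Ventricular RNA of 4 *Runx1* OE and 2 Myh6-CreER control mice at P10 was sequenced as poly(A) libraries, 1 per mouse. According to the study's methods, reads were aligned with STAR to mm39 and assigned to Ensembl transcripts by expectation maximization in Partek, while HISAT2 and mm9 appear in the processing notes of the submitters. The deposited coordinates fitted GRCm39. Whether reads were counted by strand is not stated in the sources used here. The deposited values used here are a signal in normalized counts, made by the authors by median ratio scaling, and comprise the fitted mean of each group and the total, maximum, geometric and arithmetic mean over the 6 mice. Depth before scaling is unknown from these values, so neither counting intervals nor floors are given.

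The 6 columns of single mice carry names that match no sample label and were not used, and groups were not taken from *Runx1* levels. Columns with the authors' own p-values, false discovery rates, ratios, fold changes and their limits were not used, nor was a second table of genes selected on them.

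Genes that averaged 10 or more normalized counts over the mice were kept, without a pseudocount, and log2 ratios of the group means were taken, with 1.5-fold as the threshold. Limits for single mice came from the group means, total, maximum and geometric mean, allowing each fitted mean to differ by 1% from the plain mean of its mice. The group means, each multiplied by its number of mice and added up, differed from the total by at most 0.755%. Opposite errors in the means of both groups would cancel in this sum, so it does not limit either mean alone. Values that met these constraints were found for 15172 genes, and the other 9 were not called separated. The method was tested on simulated data with the same spread between mice for every gene and fitted means kept inside the 1% allowance. That test could therefore not show whether the allowance holds in these data. Exon lengths and overlaps came from GENCODE, in which 18992 of 19079 gene identifiers were found. Python 3.11.15, numpy 2.4.6, pandas 2.3.3 and matplotlib 3.10.9 were used.

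Named were all subunits, the other voltage-gated calcium channel genes in the table, and up to 4 genes of each partner list with the largest log2 ratios among those with a mean of at least 50. Marker genes, genes on opposite strands and the further dyad partners were named after their values were seen. Members and lists were chosen with earlier results of these data known.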

Additional observations from a re-analysis of the deposited data

How the results depend on the processing

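The subunits' counts and median moved under several alternatives. Of 89 recomputed single-gene values, 81 kept their side of the 1.5-fold threshold, 5 passed it and 3 lost it. The 89 include values under other filters on the mean, which cannot change a gene's own ratio and so were the same by construction. Pseudocounts and centring on the median of all genes moved the ratios little. The 81 are therefore no measure of robustness. No gene past 1.5-fold changed sign, but some within it did. With ratios centred on the ventricular cardiomyocyte markers, a shift of -0.24 on the log2 scale, 2 subunits were past 1.5-fold higher and 1 lower, with a median of 0.0013, against 1916 and 307 of all genes with a median of 0.25. *Cacna1c* then had a log2 ratio of -0.45 and *Cacna1g* of 0.73, and *Cacna1h* (0.0013), *Cacna2d2* (0.089) and *Cacnb3* (0.22) were above 0. With a mean of at least 50 required, the median was -0.35. At a fold of 2, 0 subunits were lower, and at a ratio of 5 to 4, 2 were higher and 4 lower. Taking the least mean of the other *Runx1* OE mice without the highest gave a median of -0.48, and the higher control at its widest split gave -0.50, where all genes had -0.09 and -0.15. Other settings were chosen after seeing the data. The highest mean of the *Runx1* OE mice without the lowest gave 2 higher, 1 lower and a median of -0.034, where all genes gave 1479, 354 and 0.11, with *Cacna1c* at -0.51, *Cacna1g* at 0.67, *Cacna2d2* at 0.11 and *Cacnb3* at 0.092. The lower control at its widest split gave 2 higher, 1 lower and a median of 0.12, where all genes gave 2702, 384 and 0.21, with *Cacna1c* at -0.52, *Cacna1g* at 0.91, *Cacna1h* at 0.12, *Cacna2d2* at 0.17 and *Cacnb3* at 0.22. *Cacnb1* passed 1.5-fold lower without the highest *Runx1* OE mouse, at -0.67, and against the higher control, at -0.59. *Cacna1d* and *Cacna2d1* stayed separated with up to 5% allowed between fitted and plain means, and *Cacnb1* and *Cacnb2* with up to 2%. At 5%, 1 subunit was separated higher and 1 lower, against 327 and 194 of all 15181 genes. At 2%, 1 was higher and 3 lower, against 648 and 577. At 0.5%, *Cacna1c* was separated too, making 1 higher and 4 lower, against 1152 and 1067. The cause of these moves was not tested, beyond the construction of each setting.

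No paired analysis was possible because the names of the columns of single mice match no sample label. The planned limma fit over single mice was not run for the same reason, nor were its pseudocount, filter, replicate block and leave-one-out alternatives. The 2 controls limit every ratio above.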
